A study of Mus musculus with 3 samples.

Results

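The transcription factors that hold CD8+ T cells in the naive and memory-stem state were read here across 3 Affymetrix mouse 430 2.0 arrays. The set was chosen by name and comprised Tcf7, Lef1, Bach2, Foxo1, Foxp1, Id3, Satb1, Ets1, Bcl6 and Myb, taken as every probe set whose platform annotation gives exactly 1 of these symbols. This gave 32 probe sets of 9 genes, out of 34945 single-symbol probe sets of 18193 genes. Tcf7, which encodes TCF-1, had no such probe set and was not analysed here.

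The study asked what underlies the pathogenicity of NK1.1+ T cells without TGF-β receptor type II. CD8+ T cells were sorted from Tgfbr2fl/fl x CD4-Cre mice (KO), 15 to 17 days old, into NK1.1+ and NK1.1- fractions, and from Tgfbr2fl/wt x CD4-Cre littermates (control). All 3 groups therefore carry Cre under control of Cd4 sequences, which act in T cells from the thymus onwards, and the control cells carry 1 floxed allele as well. The control cells are called NK1.1- in the sample title, while the design text speaks of the total CD8+ population in another place, and the labels do not say whether animals were pooled. Each group had 1 array, so no difference below has a replicate check and none was tested.

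Naive T cells persist in a quiescent state that is kept by a set of transcription factors and is given up when the cells become effectors. TCF-1 and LEF-1 are related HMG-box proteins that bind the same DNA core and can pair with β-catenin or with Groucho/TLE corepressors. FOXO1 is held out of the nucleus by AKT and drives genes of homing and survival such as Il7r and Ccr7. BACH2 and BCL6 are repressors that hold back the effector program directed by BLIMP-1 (Prdm1), and ID3 inhibits E proteins, as does its relative ID2, which is used by effector cells.

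Values are probe set intensities, and a value counted as measured from 11.5 upwards, the 95th percentile of 148 probe sets of genes not known to be transcribed in T cells, such as olfactory receptors. Values below this level were raised to it, the log2 difference between arrays was taken, and a probe set or gene was called lower or higher where it reached 2-fold. A gene was read by its brightest probe set. Over all genes 9335 were measured on the KO NK1.1+ array, 9197 on the KO NK1.1- array and 9085 on the control array. The brightest Tgfbr2 probe set, which checks the labels only if it lies in the deleted part, read 1808 in KO NK1.1+, 1271 in KO NK1.1- and 2634 in control cells.

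Most of the factors read highest in control cells. Of the 32 probe sets, 29 were measured on at least 1 array and 3 on none (1 each of Foxo1, Bcl6 and Myb). The control array was the highest of the 3 for 27 of the 29, against 38.4% of 17658 measured single-symbol probe sets. In 20 of the 29 the value went down from control through KO NK1.1- to KO NK1.1+, against 30.02% of all. The exceptions to the high control value were the Bcl6 probe set and 1 of Ets1.

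**Figure D1:**
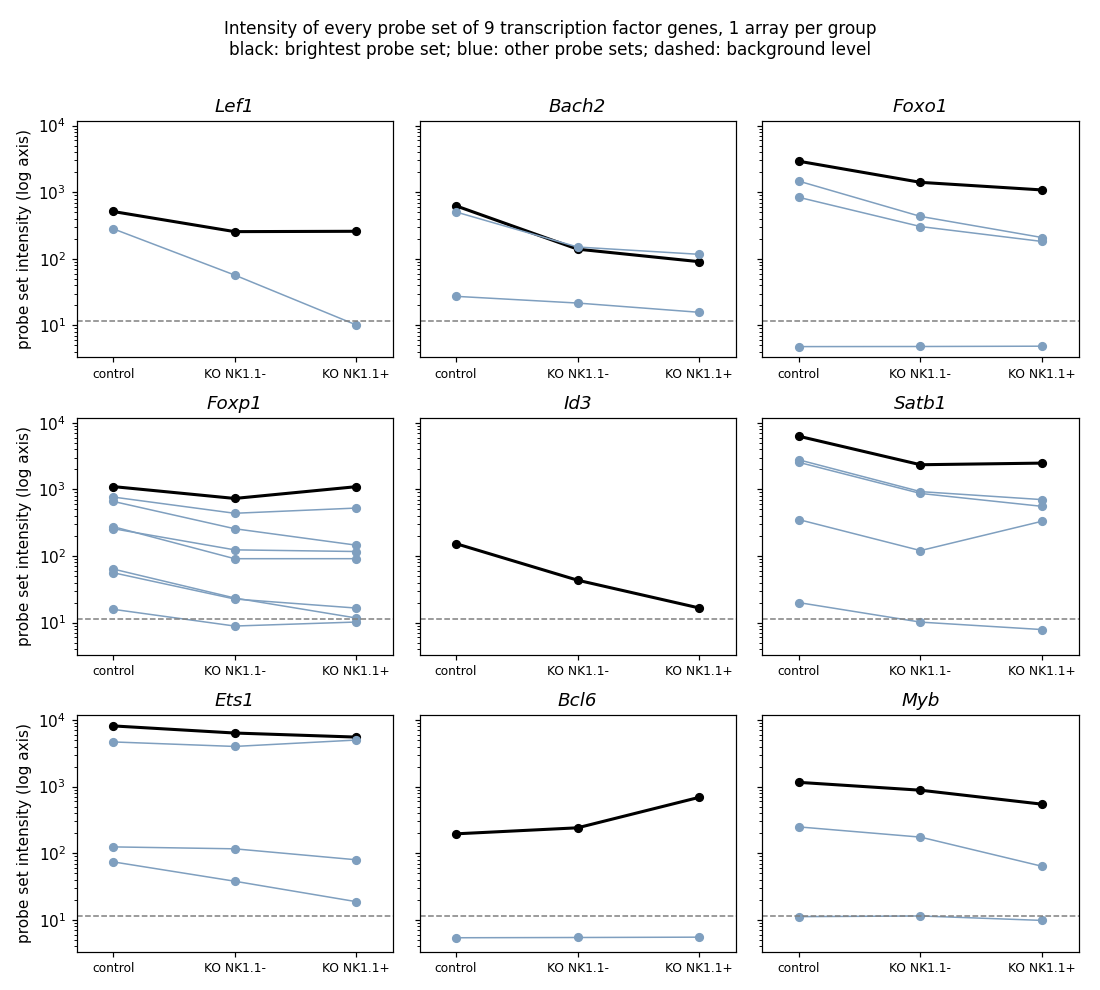
Intensity (log axis) of each probe set on the control, KO NK1.1- and KO NK1.1+ arrays, 1 panel per gene and 1 line per probe set, with the brightest in black and the background level of 11.5 dashed; lines join values of the same probe set and there are no error bars because each group had 1 array. Most lines are highest at the control array, and the measured Bcl6 line is highest at the KO NK1.1+ array.

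Of the 9 genes, 5 were called lower in KO NK1.1- than in control cells and 0 higher, where 5.64% of 9507 measured genes were called lower and 8.27% higher. The 5 were Bach2, Id3, Satb1, Foxo1 and Lef1, between 2.01-fold and 4.47-fold lower. The median log2 difference of the 9 was -1.0, against 0.01 for all measured genes. By probe set, 17 of 29 were called lower and 0 higher, against 5.97% lower and 7.07% higher among all single-symbol probe sets. Lef1 stood just inside the 2-fold limit, with a log2 difference of -1.0, and Foxp1 was the nearest outside it, at -0.59.

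In KO NK1.1+ cells 5 of the 9 genes were called lower than control (Id3, Bach2, Foxo1, Satb1 and Myb) and 1 higher (Bcl6), where 23.7% of 9974 measured genes were called lower and 9.79% higher. The median log2 difference was -1.09 for the 9 and -0.22 for all measured genes. By probe set 18 of 29 were called lower and 1 higher, against 23.4% and 8.8% of all. Just inside and outside the limit stood Myb at -1.09 and Lef1 at -0.99. Low values were thus common on this array, and the spread of log2 differences between probe sets of the same gene was also larger, with a pooled SD of 0.84 against 0.43 for KO NK1.1- against control. The 3′ to 5′ ratio of the Actb control probe sets was 81.9 for KO NK1.1+, 12.3 for KO NK1.1- and 6.02 for control cells, and that of Gapdh was 10.8, 26.7 and 17.8. The part of these array differences in the results was not tested. When the arrays were scaled to the same median of measured probe sets, the calls over all genes changed from 976 higher and 2368 lower to 1497 higher and 1675 lower, and the median of all genes moved from -0.22 to 0.09; of the 9 factors 4 were then called lower, without Myb, and 1 higher.

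Between the KO fractions 1 of the 9 genes was called lower in NK1.1+ cells (Id3) and 1 higher (Bcl6), where 22.1% of 9941 measured genes were called lower and 6.38% higher. The median of the 9 was -0.20 and that of all genes -0.29. Both turned when the arrays were scaled to the same median, to 0.16 and 0.07, while the calls over all genes went from 634 higher and 2198 lower to 1107 higher and 1351 lower. By probe set 5 of 27 were called lower and 2 higher, against 21.4% and 6.27% of all. The comparisons with control share the control array, so the side-by-side values below are not independent of each other.

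**Figure D2:**
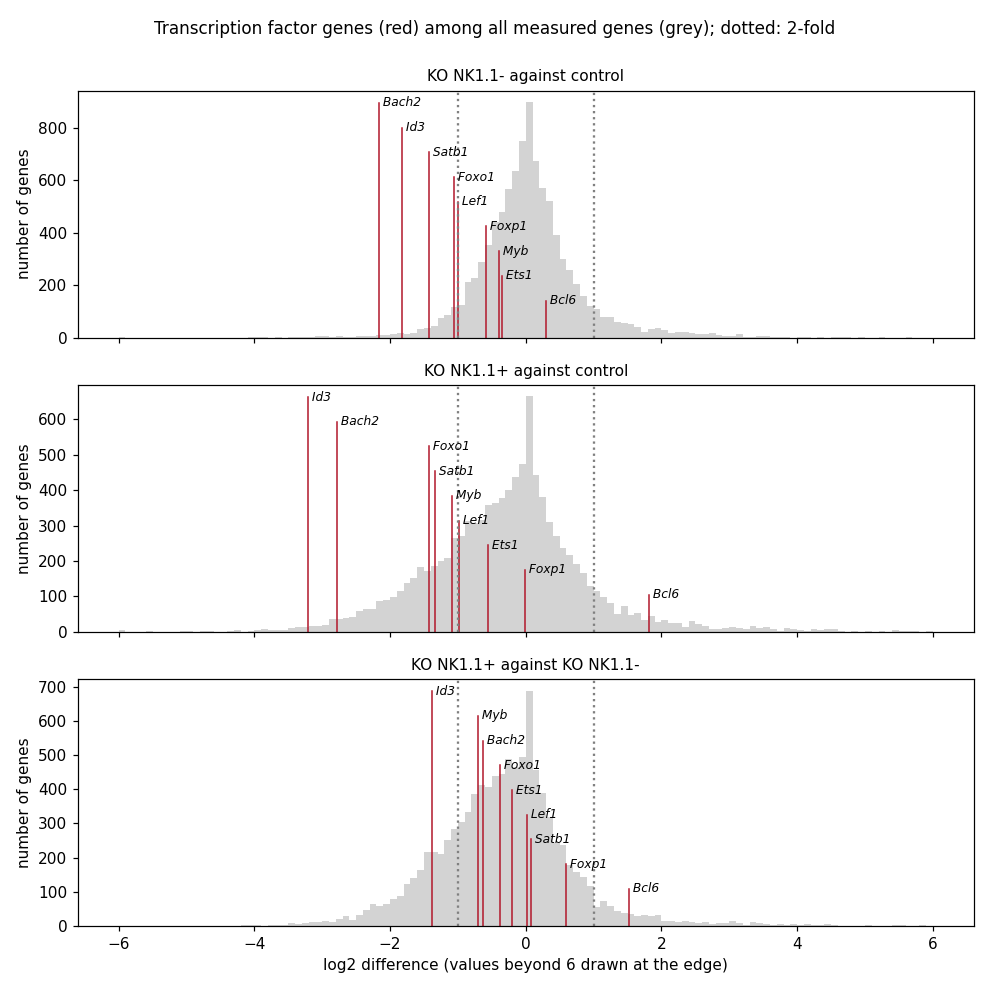
Number of genes (grey bars) by log2 difference in the 3 comparisons, with the 9 transcription factor genes marked by red lines whose height carries no value and dotted lines at 2-fold. Bach2, Id3, Satb1, Foxo1 and Lef1 lie to the left of the 2-fold line in the KO NK1.1- comparison, and Bcl6 lies to the right of it in both comparisons of the KO NK1.1+ array.

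The promoters of genes that move together can be set side by side, and 4 are shown because they hold the most motif matches (Lef1, Bach2), none (Id3), or belong to the gene that moved the other way (Bcl6). They are the 250 bases before a RefSeq gene start on the mouse genome GRCm38.p6, 5′ to 3′ on the strand of the gene, with motif matches in capitals. The Lef1 sequence is chr3:131156044-131156293 on the + strand, before the most downstream of 4 starts, that of Bach2 is chr4:32417185-32417434 on the + strand, that of Id3 is chr4:136143572-136143821 on the + strand, and that of Bcl6 is chr16:23981284-23981533 on the - strand, before the downstream of 2 starts.
Lef1: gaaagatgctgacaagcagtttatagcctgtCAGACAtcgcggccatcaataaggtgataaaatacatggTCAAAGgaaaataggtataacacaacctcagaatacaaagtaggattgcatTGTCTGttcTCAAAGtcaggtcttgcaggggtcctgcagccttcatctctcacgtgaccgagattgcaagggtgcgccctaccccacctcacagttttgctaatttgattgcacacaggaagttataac
Bach2: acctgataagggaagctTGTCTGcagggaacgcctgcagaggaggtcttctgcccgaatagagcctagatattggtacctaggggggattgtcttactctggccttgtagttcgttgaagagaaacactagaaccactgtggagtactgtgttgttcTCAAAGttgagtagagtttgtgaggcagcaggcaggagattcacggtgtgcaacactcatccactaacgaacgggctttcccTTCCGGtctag
Id3: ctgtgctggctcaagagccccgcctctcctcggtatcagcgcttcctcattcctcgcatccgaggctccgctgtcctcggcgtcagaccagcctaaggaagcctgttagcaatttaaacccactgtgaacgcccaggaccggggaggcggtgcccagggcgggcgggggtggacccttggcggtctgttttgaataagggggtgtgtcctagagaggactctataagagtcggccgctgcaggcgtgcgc
Bcl6: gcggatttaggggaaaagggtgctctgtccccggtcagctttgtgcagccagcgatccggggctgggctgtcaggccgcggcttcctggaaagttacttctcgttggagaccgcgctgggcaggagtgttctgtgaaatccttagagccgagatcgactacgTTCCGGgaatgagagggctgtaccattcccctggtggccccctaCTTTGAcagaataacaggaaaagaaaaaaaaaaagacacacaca
The motifs searched, on both strands and without overlap between the matches shown, were the TCF/LEF core CTTTGA, the forkhead motif GTAAACA, the ETS motif CCGGAA, the BACH/AP-1 motif TGANTCA, the T-box motif GGTGTGA, the E-box CACCTG, the BLIMP1/IRF motif GTGAAAG and the SMAD box CAGACA.

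Promoters were matched by symbol for 9 of the 10 factors, Tcf7 included, with 20 start sites in all. The TCF/LEF core was found in 4 of the 20 windows (Lef1, Bach2, Foxp1 and Bcl6), against 13.8% of 32817 windows of all genes. At the most downstream of the 4 Lef1 starts it stood 180 to 175 and 120 to 115 bases before the start. The windows of the other Lef1 starts held no match to any of the motifs. In Bach2 the core stood 93 to 88 bases before the start. The SMAD box was in 3 windows (Lef1, Bach2 and Satb1; 17.1% of all), the ETS motif in 3 (Tcf7, Bach2 and Bcl6; 12.02% of all), the E-box in 2 (Foxp1 and Satb1; 17.2% of all) and the T-box motif in 1 (Myb; 3.33% of all). The forkhead, BACH/AP-1 and BLIMP1/IRF letters were in none, against 3.16%, 6.75% and 3.57% of all windows. These are matches of letters and were not tested as sites. The windows of the factors had a median GC content of 58.2%, against 52.4% for all.

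Lef1, the partner of Tcf7 in the naive state, was lower in both KO fractions by both of its probe sets, which disagreed on the size. The brighter probe set read 259 in KO NK1.1+, 256 in KO NK1.1- and 513 in control cells. It put both KO arrays at the same level, about 2-fold below control (log2 differences of -0.99 and -1.0). Among all measured genes 24.1% lay further below control than this in KO NK1.1+ and 5.59% in KO NK1.1- cells. With the arrays scaled to the same median the KO NK1.1+ difference was -0.65. The other probe set, which carries the suffix for shared transcript forms of a gene, read 10.2, 57.03 and 282 in the same order. By it Lef1 was 4.95-fold lower in KO NK1.1- cells and at least 24.6-fold lower in KO NK1.1+ cells, where it was below the measured level. With an offset of 32 the brighter probe set gave -0.92 in KO NK1.1- cells, under 2-fold, and with both probe sets averaged Lef1 counted as called lower in KO NK1.1+ cells too. The KO fractions differed by 1.01-fold with the brighter and by at least 4.97-fold with the other probe set. Beside it, the cofactors and β-catenin pathway genes with which LEF-1 works were mostly not called. In KO NK1.1- cells 0 of 16 measured were called higher and 1 lower (median log2 difference 0.11). In KO NK1.1+ cells 2 of the same 16 were called higher and 2 lower (median -0.09), against 9.79% and 23.7% of all measured genes. Ctnnb1, which encodes β-catenin, read 4221 in KO NK1.1+, 5277 in KO NK1.1- and 6449 in control cells. Axin1, a scaffold of the β-catenin destruction complex, was 2.75-fold lower in KO NK1.1+ than in control cells. Hdac2, which encodes a histone deacetylase, was 4.21-fold lower there by its brightest probe set, while its 3 probe sets ranged from -3.16 to 1.08 on the log2 scale. The TCF family relative Tcf7l2 was measured on the KO NK1.1+ array only, at 63.4.

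Foxo1 was lower in both KO fractions by all 3 of its measured probe sets. The brightest, an _s_at probe set that can read related transcripts, gave 1081 in KO NK1.1+, 1405 in KO NK1.1- and 2914 in control cells, which is 2.70-fold and 2.07-fold below control. The next gave 209, 433 and 1464 and the third 182, 305 and 837 in the same order. Control was thus highest and KO NK1.1+ lowest by each. Over the 3 probe sets the log2 difference from control ranged from -1.76 to -1.05 in KO NK1.1- and from -2.81 to -1.43 in KO NK1.1+ cells. Between the KO fractions 1 of the 3 was called lower in NK1.1+ cells, at -1.05. The brightest was at -0.38, near the median of all measured genes (-0.29), and 46.0% of them fell further. With the arrays scaled to the same median the brightest was at -0.02.

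Its relative Foxo3, which binds the same DNA motif, read 2059 in KO NK1.1+, 579 in KO NK1.1- and 1301 in control cells. It was 2.25-fold lower than control in KO NK1.1- cells and 1.58-fold higher in KO NK1.1+ cells, an order unlike that of Foxo1. Foxo4 read between 24.8 and 31.6 on the 3 arrays. Of the 12 relatives of the factors that were measured on the control array, 2 were called higher and 2 lower in KO NK1.1- cells (median log2 difference -0.11), and 4 higher and 2 lower in KO NK1.1+ cells (median 0.07). The shares of all measured genes were 8.27% and 5.64% in KO NK1.1-, and 9.79% and 23.7% in KO NK1.1+ cells. Tcf7l2, Foxp2 and Id4 were measured on the KO NK1.1+ array only and could not be called lower there.

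Of genes that FOXO1 is known to activate in T cells, 5 of 12 measured were called lower in KO NK1.1- than in control cells and 0 higher, with a median log2 difference of -0.91. In KO NK1.1+ cells 7 of the 12 were called lower and 0 higher (median -1.08). Over all measured genes 5.64% were called lower in KO NK1.1- (median 0.01) and 23.7% in KO NK1.1+ cells (median -0.22). Ccr7, the receptor that guides naive cells to lymph nodes, was below the measured level in KO NK1.1+ cells and read 67.1 in KO NK1.1- and 1101 in control cells. Sesn1, which encodes a stress-induced inhibitor of mTORC1, read 280 in KO NK1.1+, 326 in KO NK1.1- and 1578 in control cells. In KO NK1.1+ cells its 4 probe sets ranged from -3.80 to -0.16 on the log2 scale. S1pr1, which lets T cells leave lymphoid organs, read 130.5 in KO NK1.1+, 209.7 in KO NK1.1- and 539 in control cells. Sesn3 read 182, 299 and 856 in that order by its brighter probe set. By the other, Sesn3 was at -0.22 on the log2 scale in KO NK1.1- cells, under 2-fold, and at -1.02 in KO NK1.1+ cells. Il7r, the interleukin-7 receptor α chain, was 2.11-fold lower than control in KO NK1.1+ and 1.52-fold lower in KO NK1.1- cells. Not every target was called lower. By their brightest probe sets Bcl2l11 and Ccng2 were above control, at 0.10 and 0.18 on the log2 scale in KO NK1.1- cells. In KO NK1.1+ cells they were at 0.44 and 0.39. The lowest of their probe sets stood at -0.60 and -1.36 in KO NK1.1- and at -0.39 and -2.26 in KO NK1.1+ cells. Klf2, which controls S1pr1, read 1792 in KO NK1.1+, 1111 in KO NK1.1- and 1955 in control cells. Cdkn1b, encoding the cell cycle inhibitor p27, read 2060, 578 and 1120 in that order, with the lowest value in KO NK1.1- cells, in which 15 of 16 measured proliferation genes were called higher than control.

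Among genes of the PI3K and AKT pathway that keeps FOXO1 out of the nucleus, 1 of 19 was called lower in KO NK1.1- cells and 0 higher (median log2 difference 0.27). The one was Pik3cd, encoding the p110δ subunit, at 136 in KO NK1.1+, 297 in KO NK1.1- and 841 in control cells. Its 4 probe sets ranged from -2.88 to -0.44 in KO NK1.1- and from -2.96 to 0.46 in KO NK1.1+ cells. In KO NK1.1+ cells 4 of 19 were called lower and 1 higher (median -0.26), against 23.7% and 9.79% of all measured genes. The higher one was Sgk1, encoding a kinase that also phosphorylates FOXO proteins, at 4395 against 1522 in control cells.

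Foxp1, a forkhead repressor that keeps naive T cells quiescent, was read by 8 probe sets that did not agree on the call. The brightest read 1099 in KO NK1.1+, 732 in KO NK1.1- and 1103 in control cells, and was called in no comparison. The next brightest read 525, 438 and 768 and was not called either. The third read 146, 257 and 661, which is 4.54-fold and 2.57-fold below control. In both comparisons with control 5 of the 8 were called lower and 0 higher, and the remaining 3 were below 0 on the log2 scale. The median over the 8 was -1.18 in KO NK1.1- and -1.37 in KO NK1.1+ cells, against -0.59 and -0.01 by the brightest, and with all probe sets averaged Foxp1 counted as called lower in both. With the arrays scaled to the same median the KO NK1.1+ difference by the brightest probe set was 0.33. Foxp3, the family member that defines regulatory T cells, was 2.92-fold lower in KO NK1.1- cells and at least 8.47-fold lower in KO NK1.1+ cells, from 97.1 in control cells.

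Bach2 was far below control in both KO fractions by 2 of its 3 probe sets. Its brightest probe set read 90.5 in KO NK1.1+, 139.6 in KO NK1.1- and 624 in control cells, which is 6.89-fold and 4.47-fold below control. The second probe set read 117, 150.2 and 505, so that control was again far above both KO arrays. The third was dim, at 15.7, 21.7 and 27.3, and was not called. With the 3 averaged the log2 difference from control was -1.41 in KO NK1.1- and -1.90 in KO NK1.1+ cells, against -2.16 and -2.78 by the brightest. Of all measured genes 0.67% lay further below control than the brightest Bach2 probe set in KO NK1.1- and 1.74% in KO NK1.1+ cells. Bach1, its relative, went the other way on the KO NK1.1+ array and read 4308 there, 1851 in KO NK1.1- and 1537 in control cells.

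Bcl6, a repressor of Prdm1 needed for memory and follicular helper T cells, was the 1 gene of the set called higher. Its measured probe set read 691 in KO NK1.1+, 241 in KO NK1.1- and 196 in control cells. The KO NK1.1+ array stood 3.53-fold above control and 2.87-fold above KO NK1.1-, while the other arrays differed by 1.23-fold. The second Bcl6 probe set was below the measured level on every array, between 5.39 and 5.50, and with both averaged the difference from control in KO NK1.1+ cells was 0.91 on the log2 scale, under 2-fold. Monocytes and macrophages also express Bcl6, and 4 of 4 markers of these cells that were measured on the control array were called higher on the KO NK1.1+ array, on which 8 were measured in all. The summed value of all 13 markers was 11192 in KO NK1.1+, 272 in KO NK1.1- and 197 in control cells, with C1qa, C1qc, Cd14, Itgam and Ms4a7 below the measured level on every array. Their part in the Bcl6 value was not tested.

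Of 11 measured partners and corepressors of BACH2 and BCL6, 2 were called higher and 0 lower in KO NK1.1- cells (median log2 difference -0.19). In KO NK1.1+ cells 5 of 11 were called lower and 0 higher (median -0.92). The shares over all measured genes were 8.27% higher in KO NK1.1- and 23.7% lower in KO NK1.1+ cells. Among the partners called lower in KO NK1.1+ cells were genes of class IIa histone deacetylases. Hdac7 read 17.5 in KO NK1.1+, 112 in KO NK1.1- and 202 in control cells, though in KO NK1.1+ cells its other probe set gave a log2 difference of -0.77. Hdac5 read 19.8, 70.2 and 135 in that order. Mafg, which encodes a small MAF partner of BACH2, was 2.21-fold higher in KO NK1.1- than in control cells by its brighter probe set and at -0.25 on the log2 scale by the other.

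Id3 was below control in both KO fractions and was the 1 gene of the 9 called lower in NK1.1+ than in NK1.1- KO cells by the brightest probe set of each. Its single probe set read 16.6 in KO NK1.1+, 43.4 in KO NK1.1- and 153 in control cells. It lay 9.23-fold and 3.54-fold below control, and the KO fractions differed by 2.61-fold. Of all measured genes 0.85% lay further below control in KO NK1.1+ and 1.14% in KO NK1.1- cells. For most of the other factors this share was larger in KO NK1.1+ cells. It was 14.6% for Foxo1, 16.3% for Satb1, 21.4% for Myb, 24.1% for Lef1, 37.4% for Ets1, 59.8% for Foxp1 and 95.8% for Bcl6. The Id3 value in KO NK1.1+ cells lies close to the measured level, so the size depends on how dim values are treated. Its log2 difference from control there was -3.21, but -1.93 with an offset of 32 added to every value and -1.51 with the 75th percentile of the whole table as the level. In KO NK1.1- cells it was -1.82, -1.30 and -1.51 in the same order. Between the KO fractions the offset gave -0.63, under 2-fold. Id2, the inhibitor of the same E proteins in effector cells, was the reverse. It read 13525 in KO NK1.1+, 8641 in KO NK1.1- and 2009.7 in control cells, 6.73-fold and 4.30-fold above control, with log2 differences of 1.5 to 3.64 and 2.10 to 2.37 among its 3 probe sets. Id1 was below the measured level on every array, and Id4 was measured on the KO NK1.1+ array only. Of the E protein genes, 0 of 2 measured by the brightest probe set were called in KO NK1.1- cells. In KO NK1.1+ cells 1 of the same 2 was called lower. The brightest Tcf4 probe set was measured on the KO NK1.1+ array only. In KO NK1.1+ against control 5 Tcf4 probe sets were measured, from 0.13 to 2.50 on the log2 scale. In KO NK1.1- against control 2 were measured, at 0.04 and 0.07. Tcf12 read 1685, 1781 and 2765 and was not called against control. Tcf3, encoding E2A, was 3.36-fold lower in KO NK1.1+ than in control cells, with -0.03 on the log2 scale by its other probe set.

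Satb1, which encodes a chromatin organiser of T cell development, was lower in KO NK1.1- than in control cells by 4 of 5 probe sets, with log2 differences of -1.59 to -1.42. The brightest read 2482 in KO NK1.1+, 2346 in KO NK1.1- and 6279 in control cells, which is 2.53-fold and 2.68-fold lower, with the KO arrays alike (1.06-fold apart). The next read 703, 927 and 2780 and the third 557, 870 and 2547 in the same order. On these 3 probe sets the KO arrays were both far under control. The fourth stood apart, at 333 in KO NK1.1+, 121 in KO NK1.1- and 352 in control cells, so that by it KO NK1.1+ cells were near control and 2.76-fold above KO NK1.1- cells. The fifth was above the measured level in control cells alone, at 19.97.

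Ets1, a T cell regulator needed for CD8 lineage genes, was called in no comparison by its brightest probe set. It read 5542 in KO NK1.1+, 6378 in KO NK1.1- and 8158 in control cells, at most 1.47-fold apart. The next read 5004, 4011 and 4688, with the highest value in KO NK1.1+ cells, and the third 79.8, 117 and 125. The dimmest read 18.8, 38.02 and 74.2 and was called lower in KO NK1.1+ than in control cells (3.96-fold) and than in KO NK1.1- cells. Of the related ETS family genes, Ets2 read 47.7, 157 and 279, called 5.85-fold lower in KO NK1.1+ than in control cells by its brightest probe set and at -0.16 on the log2 scale by the other. Fli1 read 549, 231 and 275, and Elf1 and Gabpa were called in no comparison.

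Myb, which sustains stem-like memory CD8 T cells and immature lymphocytes, was called lower than control on the KO NK1.1+ array only. Its brightest probe set, an _x_at probe set that may cross-hybridise, read 545 in KO NK1.1+, 884 in KO NK1.1- and 1159 in control cells. The second read 63.7, 175 and 248. KO NK1.1+ was the lowest array by both, at 2.13-fold and 3.90-fold below control, while KO NK1.1- was 1.31-fold and 1.42-fold below control and not called. The first of these log2 differences was -0.84 after quantile normalization and -0.75 after scaling the arrays to the same median, under 2-fold. Its rank among all measured genes was alike in both comparisons. More genes fell further below control than the brightest Myb probe set in KO NK1.1- (23.5%) than in KO NK1.1+ cells (21.4%). Proliferation genes gave a different order, with 15 of 16 called higher in KO NK1.1- than in control cells and 8 of 17 lower in KO NK1.1+ than in control cells. Among all measured genes these shares were 8.27% and 23.7%. Mybl1 and Mybl2, relatives of Myb of which Mybl2 is a cell cycle gene, were below the measured level on every array. Partners of MYB and ETS1 were called for 0 of 9 genes in KO NK1.1- cells and higher for 2 of 9 in KO NK1.1+ cells, Runx1 (2.43-fold) and Ep300 (2.34-fold), with 0 lower. For Runx1 the 3 probe sets ranged from -0.03 to 1.28 on the log2 scale.

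**Figure D3:**
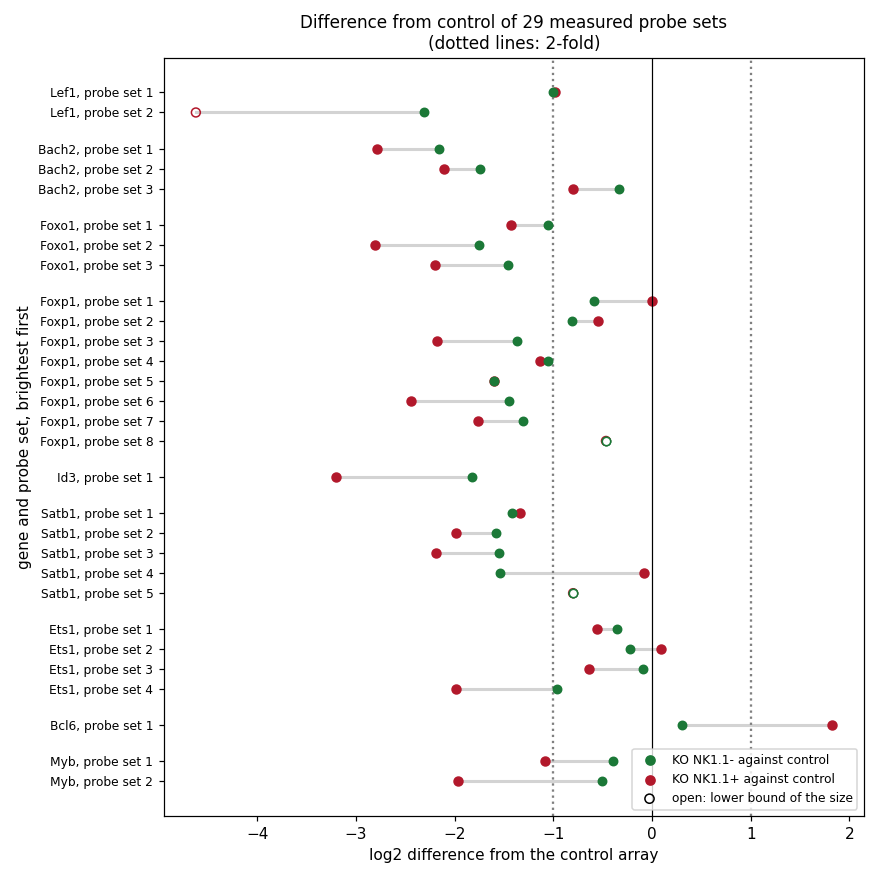
Log2 difference from the control array of the 29 measured probe sets, grouped by gene with the brightest first, for KO NK1.1- (green) and KO NK1.1+ (red), with dotted lines at 2-fold and open points where 1 array was below the measured level. All Foxo1 and Id3 points and most of Bach2, Satb1 and Foxp1 lie left of -1, and the Bcl6 points lie right of 0.

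The effector transcription factors that oppose the naive state read the other way in KO NK1.1- cells. There 10 of 14 measured were called higher than control and 0 lower, against 8.27% and 5.64% of all measured genes. Prdm1, which is repressed by BACH2 and BCL6, read 269 in KO NK1.1+, 273 in KO NK1.1- and 46.9 in control cells. Tbx21, encoding T-bet, read 1568, 2170.5 and 192, and Bhlhe40, which encodes a helix-loop-helix repressor, 718, 778 and 29.9. In KO NK1.1+ cells 7 of the 14 were called higher and 2 lower, against 9.79% and 23.7% of all measured genes. Zeb2 and Nfil3 were below the measured level in control cells and could not be called lower. Of the 12 measured on the control array, 8 were called higher and 0 lower in KO NK1.1- cells (median 1.25), and 5 higher and 2 lower in KO NK1.1+ cells (median 0.27). The lower ones were Batf and Irf4, partners in activated T cells. Batf read 22.7 in KO NK1.1+, 123 in KO NK1.1- and 60.9 in control cells, and Irf4 40.1, 205 and 97.6 in that order. Eomes, a T-box factor of memory and effector cells, read 734, 2085 and 593 by its brighter probe set. That is 3.52-fold above control in KO NK1.1- cells and 1.24-fold in KO NK1.1+ cells. The other Eomes probe set was at 1.53 on the log2 scale in KO NK1.1- cells. In KO NK1.1+ cells it was at -1.01, which is past the 2-fold limit in the lower direction. Zeb2, which encodes a transcriptional repressor active in terminal effector cells, was at least 5.13-fold above control in KO NK1.1- cells. It was at least 54.7-fold above control in KO NK1.1+ cells, with 10.7-fold between the KO fractions. Its 5 probe sets ranged from 0.86 to 2.64 and from 1.80 to 5.77 on the log2 scale, and macrophages also express Zeb2.

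**Figure D4:**
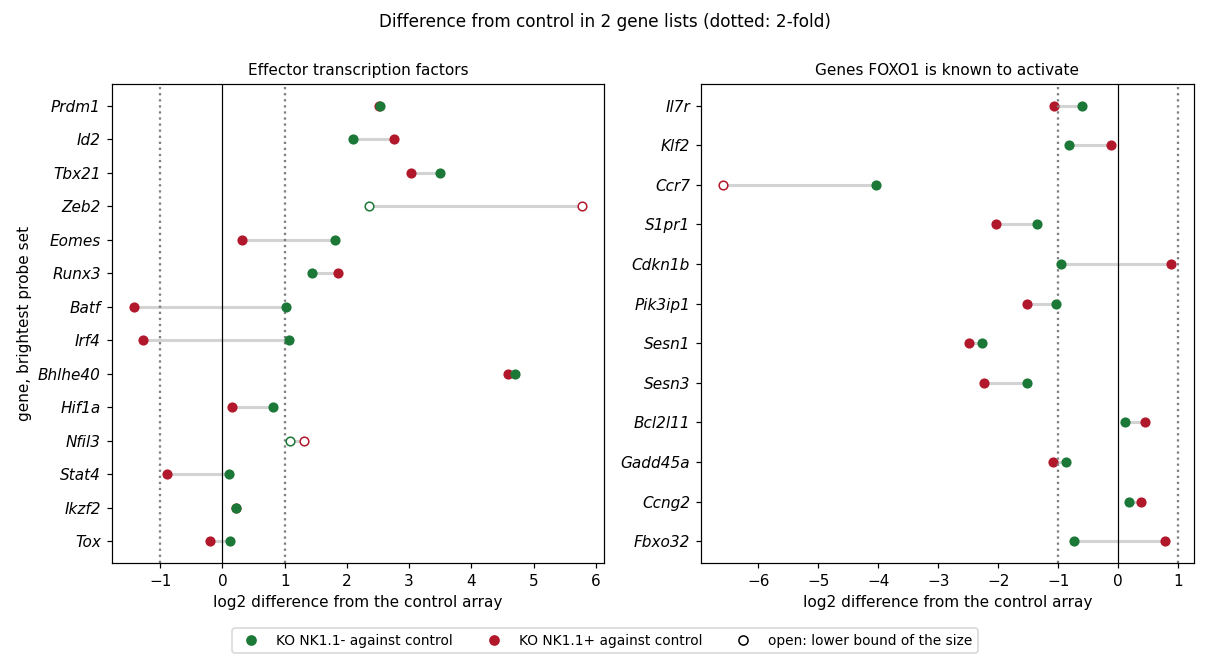
Log2 difference from the control array, by the brightest probe set, of 14 effector transcription factor genes and 12 genes that FOXO1 is known to activate, for KO NK1.1- (green) and KO NK1.1+ (red), with dotted lines at 2-fold and open points for lower bounds. The KO NK1.1- points of 10 effector genes lie at or right of 1, and 5 of the FOXO1 target points lie at or left of -1.

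Markers of the sorted and of other cells were read beside these values. All 8 CD8 T cell markers on the array were measured in every group, with a summed value of 7077 in KO NK1.1+, 12455 in KO NK1.1- and 15381 in control cells. Cd8a, the sort marker, read 524, 1027 and 1786 in that order, and the probe set shared by Klrb1b and the NK1.1 gene Klrb1c read 1618, 52.7 and 7.09. In KO NK1.1+ against control 6 of the 8 CD8 T cell markers were called lower, where 23.7% of all measured genes were. In KO NK1.1- against control 0 of 8 were, where 5.64% of all were. In bulk RNA fewer cells of a type and less RNA per cell cannot be told apart. NK cell markers were called higher in 6 of 8 measured genes in KO NK1.1- and 7 of 8 in KO NK1.1+ cells. The shares of all measured genes called higher were 8.27% and 9.79%. Ncr1 was below the measured level everywhere. B cells also express Bach2, Bcl6, Ets1 and Foxp1, and B cell markers summed to 2672 in KO NK1.1+, 532 in KO NK1.1- and 446 in control cells, of which Jchain, a plasma cell gene, made up 2282 on the first array. Cd79a, Pax5 and Vpreb3 were below the measured level on every array. Cd79b and Ms4a1 were called lower in KO NK1.1- than in control cells, and Cd22 was called higher. Of immature thymocyte markers Rag1, Rag2, Ptcra and Arpp21 were below the measured level on every array, and of the CD4 and thymocyte markers 0 of 4 measured were called in KO NK1.1- and 1 of 4 lower in KO NK1.1+ cells (Cd4). Of 5 erythroid markers only Slc4a1 was measured, and it was called lower in KO NK1.1- cells. In these cells 0 of 6 measured monocyte and macrophage markers were called. The part of these cells in the differences of the transcription factors was not tested.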

How the data were processed

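Per the labels, RNA of 3 sorted cell populations was hybridised to 1 array each. The deposited values are linear probe set intensity values that span 2.60 to 55468 over the 45037 probe sets that are not array controls. GCRMA 1.1.3 made them, per the submitters' processing notes; it corrects background by probe sequence, normalizes and combines probes, and no settings of it were found in the labels. Groups were taken from sample titles. GEO's platform annotation gave 1 symbol for 34945 probe sets, several for 932 and none for 9160; those with several or none were named for no gene. Entrez identifiers of 34741 matched a RefSeq gene table (GRCm38.p6), which changed 0 symbols.

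With python 3.11.15, pandas 2.3.3 and numpy 2.4.6, values below 11.5 (3.52 on the log2 scale) were raised to that level, log2 differences were taken and calls made at 2-fold. Single arrays allow no test, and their number limits the precision. A fold with 1 side under the level is written as "at least". The code of the call rule was run on simulated data with known changes well above 2-fold in bright genes. That run could not show how far calls near 2-fold or on dim values hold. The members, gene lists and alternatives were chosen with earlier results of these data known. Named were all members with every probe set, and from each of the other lists mainly the measured genes with the largest differences; relatives, marker genes and genes that did not differ were named beside them for comparison. The 16 lists beside the members covered relatives, cofactors, upstream regulators, targets, opposing factors, cell type markers, proliferation and housekeeping genes. Of 8 measured housekeeping genes 0 were called in KO NK1.1- against control. In KO NK1.1+ against control 4 of the 8 were called lower, where 23.7% of all measured genes were. Promoter sequences are RefSeq's.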

Additional observations from a re-analysis of the deposited data

Results flagged for a closer look

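Among the lists of cofactors and opposing factors, 4 genes were called in opposite directions in the KO fractions against the shared control array; these differences between the fractions were not tested. Bcl9, which encodes a β-catenin coactivator, had a log2 difference of -1.07 in KO NK1.1-, where it was below the measured level, and of 2.03 in KO NK1.1+ cells. Nsd2, a histone methyltransferase gene, was at 1.88 in KO NK1.1- and -1.48 in KO NK1.1+ cells, with another probe set at 0.57 in the latter. Batf was at 1.02 in KO NK1.1- and -1.42 in KO NK1.1+ cells. Irf4 was at 1.07 in KO NK1.1- and -1.28 in KO NK1.1+ cells.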

How the results depend on the processing

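No paired analysis was possible because each group had 1 array, and for the same reason no replicate could be left out. For the factors against control, 8 alternatives were listed at the outset, with earlier results of these data known. Another 1 was added later, after seeing the data (level and probe sets chosen without the KO NK1.1+ array, for KO NK1.1- against control). The counts called lower stayed within 1.5 times of the main count, at 4 to 6 genes in KO NK1.1- and 4 to 7 in KO NK1.1+. Over all genes the share called lower ranged from 1.31% to 15.2% in KO NK1.1- and from 8.16% to 36.5% in KO NK1.1+. Several settings left the values of most factors as they were, so the range of these counts is no measure of stability. With the mean of all probe sets of a gene, 0 genes were called higher in KO NK1.1+ against control and 0 against KO NK1.1-, because a second Bcl6 probe set is below the level on every array. Between the KO fractions the counts are small and moved. At 1.5-fold 5 genes were called, 3 lower and 2 higher, where 3712 of 9941 measured genes were lower (37.3%) and 1263 higher. With the 75th percentile of the whole table as the level, and with an offset of 32, 1 gene was called and 0 lower. Over all genes 18.5% and 6.61% were then called lower. With all probe sets of a gene averaged, and with probe sets without an _x_at, _s_at or _a_at suffix, 2 were called lower. The shares over all genes were 14.8% and 23.5% in these settings. Among single factors, 179 of 194 recomputed differences moved by less than the pooled SD of probe sets of the same gene, the only spread at hand, and 15 by more. Many of the 194 could not move, because the setting left the probe set and its values as they were, so this count is no measure of stability. With all probe sets of a gene averaged, Lef1, Bach2, Foxp1 and Bcl6 each moved by more in at least 1 comparison. Where dim values limit precision, as for Id3 in KO NK1.1+ cells, the size of a difference depends on the floor or offset.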
